A study of Mus musculus with 10 samples.

Results

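The cells described here are epithelial cells of the distal mouse lung that held high counts of Hopx, a homeodomain-only cofactor long used as a marker of alveolar type 1 (AT1) cells, together with other AT1 transcripts. They were chosen by their counts of unique molecular identifiers (UMIs, 1 per captured RNA molecule): at least 3 UMIs of Hopx, at least 1 UMI of 2 or more of Ager, Aqp5, Rtkn2, Clic5, Akap5 and Cav1, no UMI of the immune gene Ptprc or the endothelial gene Pecam1, fewer than 10 UMIs of Gzme and fewer than 3 of Dlk1. Of 32698 cells that passed the quality filters in 10 libraries, 868 (2.65%) met the rule. They are called Hopx-high cells below and were compared with Hopx 0 cells, the 24414 cells of the same libraries that met the same exclusions, had fewer than 3 UMIs of each list of other cell types and had no Hopx UMI. All mice carried Sftpc-CreERT2, a tamoxifen-dependent Cre driven in alveolar type 2 (AT2) cells, and received 3 oral doses of tamoxifen at 0.2 mg per g body weight. In Sftpc-CreERT2; R26R-Confetti mice both RFP and YFP mark wildtype cells (1 library each, without a time in the labels). In Sftpc-CreERT2; Red2Kras mice RFP marks mutant cells and YFP marks wildtype cells, taken at 4 days or at 2 weeks with 2 libraries for each colour and time. Adult males and females on a mixed background were used, lungs were pooled within a library, EpCAM+ lineage-labelled cells were sorted, and the 4 days mice were collected before tamoxifen had washed out.

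AT1 cells are the thin, flat cells across which gas passes, and AT2 cells are the cuboidal cells that make surfactant and act as progenitors of AT1 cells. During repair, AT2-derived cells are known to pass through keratin-rich transitional states, often called damage-associated transient progenitors (DATPs), in which surfactant genes decline and AT1 genes appear. Hopx and Ager are widely used AT1 markers, but low levels of both transcripts also occur in mouse AT2 cells.

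The promoters of Hopx and Ager, both used by the rule, and of Sftpa1, a surfactant gene that was not, are given below because the cells are described by the balance of these 2 kinds of transcript. The windows run from 250 bases before to 50 after a RefSeq start (GRCm38.p6) and are written along the gene's strand. Capitals mark CTCAAG, the core sequence bound by the lung factor Nkx2-1, or its reverse complement CTTGAG.
Hopx, chr5:77095218-77095517, minus strand: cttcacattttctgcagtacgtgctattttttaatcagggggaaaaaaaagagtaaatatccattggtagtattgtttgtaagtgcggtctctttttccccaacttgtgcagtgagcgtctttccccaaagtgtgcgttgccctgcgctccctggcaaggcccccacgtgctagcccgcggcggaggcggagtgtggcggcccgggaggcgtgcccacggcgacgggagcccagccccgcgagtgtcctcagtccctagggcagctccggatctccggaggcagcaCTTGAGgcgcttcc
Hopx, chr5:77115074-77115373, minus strand: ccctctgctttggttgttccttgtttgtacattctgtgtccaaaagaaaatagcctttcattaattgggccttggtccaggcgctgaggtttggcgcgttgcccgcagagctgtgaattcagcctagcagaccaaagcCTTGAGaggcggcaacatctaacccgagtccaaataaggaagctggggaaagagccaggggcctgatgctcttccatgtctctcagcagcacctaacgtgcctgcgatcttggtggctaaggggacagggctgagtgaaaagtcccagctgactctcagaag
Ager, chr17:34597600-34597899, plus strand: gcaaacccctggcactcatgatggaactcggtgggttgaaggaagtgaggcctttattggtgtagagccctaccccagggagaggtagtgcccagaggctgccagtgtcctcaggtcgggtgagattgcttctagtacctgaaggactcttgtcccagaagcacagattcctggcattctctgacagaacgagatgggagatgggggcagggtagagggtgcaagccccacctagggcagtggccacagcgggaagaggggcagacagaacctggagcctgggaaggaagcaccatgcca
Sftpa1, chr14:41131538-41131837, plus strand: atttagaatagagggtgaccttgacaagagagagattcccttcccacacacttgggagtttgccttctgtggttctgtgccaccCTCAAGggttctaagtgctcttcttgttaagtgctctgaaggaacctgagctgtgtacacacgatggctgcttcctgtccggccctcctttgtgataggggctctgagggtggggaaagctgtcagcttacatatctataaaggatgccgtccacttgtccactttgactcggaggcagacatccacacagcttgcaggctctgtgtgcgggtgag
Each Hopx window held 1 match, starting at position 37 and at -112 from the start, the Sftpa1 window held 1 at -166, and the Ager window held none. Of 32851 mouse promoter windows of this length, 15.9% held CTCAAG on either strand. GGAATG, the motif of TEAD factors, was in 14.7% of all windows and in none of these 4. Neither motif was in the windows of Akap5, Aqp5, Cav1, Cavin2, Clic5, Krt7, Lyz2 or Pdpn, and Lyz1 held 1 GGAATG. The Hopx gene (chr5:77086988-77115121, minus strand) is overlapped by the antisense gene Hopxos, and whether counting used strand was not given in the sources used here.

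Each cell had to show Hopx and AT1 markers, so their presence is a description. Ager, the receptor for advanced glycation end products, had a UMI in 854 of the 868 cells and Aqp5, a water channel, in 848. Clic5 was seen in 584, Akap5 in 558, Cav1 in 134 and Rtkn2 in 129. Of the 868 cells 355 had 3 to 4 Hopx UMIs, of which 225 had exactly 3, whereas 218 had 5 to 9, 145 had 10 to 19 and 150 had 20 or more. A further 240 cells with enough Hopx and markers were left out by Ptprc (25), Pecam1 (94), Gzme (63) or Dlk1 (93, of which 91 came from 2 weeks RFP), and 115 cells that met these exclusions had 3 or more Hopx UMIs but fewer than 2 markers.

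The AT1 label held only in part. Igfbp2, a marker of mature AT1 cells that the rule did not use, had a UMI in 2 of the 822 Hopx-high cells that stayed below the limits set for airway transcripts, and Spock2 had a UMI in 0 to 3 of them per library. Sftpc, the defining AT2 transcript, stayed high, at a median of 109 to 966 UMIs per cell in the 10 libraries, airway cells left out, against a median of 2 UMIs in immune cells, 72.8% of which held at least 1. The other 46 Hopx-high cells were airway cells by their transcripts, of which 40 passed the limit for secretory genes (Scgb1a1, Scgb3a2, Cyp2f2) and 32 that for ciliated genes, 26 passing both. These 46 cells pooled 356035 CPM (UMIs of a gene scaled to a fixed library total) of Scgb1a1 against 46.3 CPM in the other 822. Airway cells made up 32 of the 181 Hopx-high cells outside the 2 weeks RFP libraries (17.7%) and 14 of the 687 within them, so the counts of genes called are given below with and without them. Among all 868 cells, 4 held 3 or more UMIs of the immune list, 9 of the endothelial list and 2 of the mesenchymal list. The matrices held 2144 to 6213 barcodes and 10742481 to 79927159 UMIs per library, the median per cell being 15529 and 13067 UMIs in the 2 weeks RFP libraries and 3257 to 6801 in the other 8. Of 41773 distinct barcodes 239 occurred in more than 1 library, with at most 17 shared by a pair.

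Hopx-high cells were unevenly spread over the libraries. The Confetti libraries held 15 (RFP, 0.377% of cells) and 13 (YFP, 0.311%), and the 4 days libraries held 25 and 6 in RFP (0.651% and 0.346%) and 24 and 10 in YFP (1.25% and 0.324%). At 2 weeks RFP replicate 1 held 111 (2.61%) and replicate 2 held 576 (16.3%, exact 95% interval 15.1 to 17.6%), while YFP held 38 (0.855%) and 50 (2.86%). The 2 weeks RFP libraries thus contributed 79.1% of all Hopx-high cells and replicate 2 alone 66.4%. The exact binomial intervals cover counting error only. The same library also had the highest counts within the class, with a median of 7 Hopx UMIs and a maximum of 97, against medians of 3 to 5 in the other 9 libraries.

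**Figure D1:**
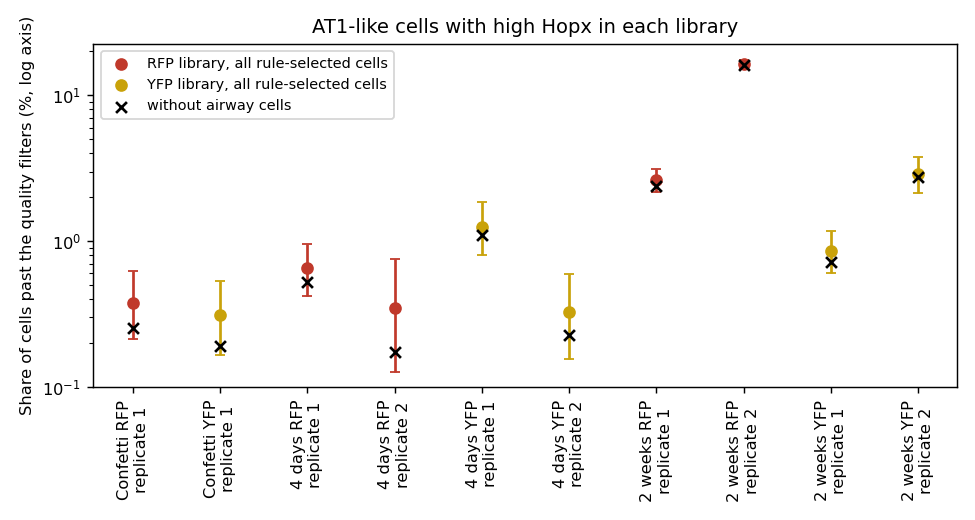
Share of Hopx-high cells among cells past the quality filters in each library (%, log axis), with exact 95% binomial intervals, coloured by RFP or YFP, and crosses for the share without airway cells. The 2 weeks RFP replicate 2 library, at 16.3%, stands above all other libraries, which lie between 0.311% and 2.86%.

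Depth and the same transcripts in immune cells were set beside these shares, and their part in the differences between libraries was not tested. In 2059 immune cells Hopx had a UMI in 20.3% of cells and Ager in 11.3% (median 7710 UMIs). All other cells had 15.2% and 87.2% (median 5521 UMIs). In 2 weeks RFP replicate 1, 10.9% of immune and 4.24% of other cells held 3 or more Hopx UMIs. Whether UMIs in immune cells were free RNA or their own transcripts was not tested, so these rates do not measure free RNA alone. Aqp5 and Clic5 also differed between immune and other cells (8.98% against 78.8%, and 1.99% against 15.7%). Akap5 (7.33% and 6.62%) and Cav1 (4.71% and 4.71%) were as frequent in immune cells, and Pdpn was more frequent there (17.6% and 10.6%). Hopx at 3 or more UMIs with 2 or more markers was met by 1.88% of immune and 23.0% of other cells in 2 weeks RFP replicate 2, by 2.17% and 4.09% in 2 weeks RFP replicate 1, and by 0.271% and 1.78% in the 2 weeks YFP libraries. In the Confetti and 4 days libraries the figures were 0.811% (4 of 493 immune cells) and 0.926%, 2 values whose difference was not tested. With each epithelial cell thinned to 3000 UMIs, the share was 9.87% in 2 weeks RFP replicate 2, 0.487% in 2 weeks RFP replicate 1, 1.63% in 2 weeks YFP replicate 2 and 0.0692% to 0.369% in the other 7. Thinning left out 30 to 453 shallower cells per library, except in Confetti YFP, where 1411 were left out. Among the same kind of cells without thinning, the shares of these 3 libraries were 20.8%, 2.65% and 4.70%.

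Whether mutant libraries held a larger share was asked over the 4 RFP and 4 YFP Red2Kras libraries, among cells with no marks of other cell types. The RFP shares were 0.540%, 0.280%, 2.65% and 20.8%, with a mean of 6.06% ± 9.86 (SD, n = 4), and the YFP shares were 1.19%, 0.275%, 0.764% and 4.70%, with a mean of 1.73% ± 2.01 (SD, n = 4). The groups overlapped, RFP being higher in 9 of 16 pairings of libraries. The difference of 4.33 percentage points did not pass a two-sided exact permutation test (p = 0.657, smallest possible 0.0286), nor did the 4.34 points without airway cells (exact permutation p = 0.686). Without 2 weeks RFP replicate 2 the difference turned to -0.572 points (exact permutation p = 0.771). Pairing the colours by replicate number gave p = 0.375 in an exact sign-flip test, in which 0.125 is the smallest possible, with RFP higher in 3 of 4 pairs. At 2 weeks alone the RFP mean was 11.7% ± 12.8 (SD, n = 2) and the YFP mean 2.73% ± 2.78 (SD, n = 2), a comparison that 2 libraries a group cannot take below the threshold.

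Cells of the library with most Hopx-high cells were then laid out by their Hopx count, airway cells left out, which gives a description with no test. In 2 weeks RFP replicate 2 the surfactant protein gene Sftpa1 stood at 12964 CPM in 1151 cells without Hopx, 8773 CPM at 2 Hopx UMIs, 7132 CPM at 3 to 4, 4447 CPM at 5 to 9, 2435 CPM at 10 to 19 and 999 CPM in 133 cells with 20 or more. Lyz2, a lysozyme abundant in AT2 cells, went from 10181 to 496 CPM over the same steps and Sftpc from 72742 to 24750 CPM. Lcn2, a lipocalin of primed AT2 cells, stayed at 3691 to 3147 CPM up to 3 to 4 UMIs and was 255 CPM in the last step. The lowest surfactant values therefore lay with the highest Hopx counts.

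Transcripts that the rule did not use behaved differently from each other. Ndnf, a secreted neurotrophic factor found in AT1 cells, was higher at every step, from 131 CPM without Hopx to 244 CPM at 3 to 4 UMIs, 693 CPM at 10 to 19 and 1112 CPM at 20 or more. Krt7, a keratin, was 1631 CPM without Hopx, 2029 CPM at 3 to 4 UMIs and peaked at 3043 CPM at 10 to 19. Pdpn, the podoplanin gene of AT1 cells, was 57.7 CPM without Hopx but 120 CPM at 3 to 4 UMIs and 104 CPM at 20 or more, so it showed no further rise among Hopx-high cells. In 2 weeks RFP replicate 1 Ndnf was 58.4 CPM without Hopx and 835 CPM in the 11 cells with 20 or more UMIs, and Sftpa1 was 27895 and 4991 CPM. Genes used by the rule moved as well (Ager from 772 to 3726 CPM and Clic5 from 21.7 to 516 CPM in replicate 2), which the selection in part fixes.

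**Figure D2:**
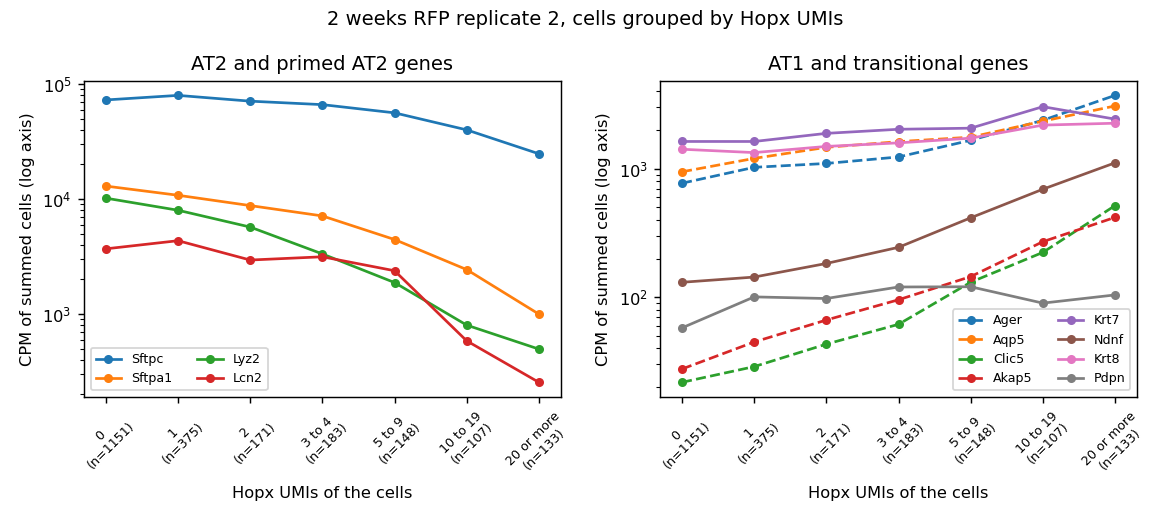
CPM (log axis) of summed cells of 2 weeks RFP replicate 2 at increasing Hopx UMIs per cell, with surfactant and primed AT2 genes on the left and AT1 and transitional genes on the right (dashed lines for genes used by the rule). Sftpa1 goes from 12964 to 999 CPM and Ndnf from 131 to 1112 CPM, whereas Pdpn stays between 89.9 and 121 CPM from 3 Hopx UMIs upward.

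The edge of the rule cut through this gradient. In 2 weeks RFP replicate 2 and without airway cells, the 171 cells with 2 Hopx UMIs had 183 CPM of Ndnf, 8773 CPM of Sftpa1 and 5707 CPM of Lyz2, and the 102 cells just inside, with 3 UMIs, had 242, 6468 and 3353 CPM. In 2 weeks RFP replicate 1 the 92 cells with 2 UMIs had 112, 24124 and 17237 CPM and the 38 with 3 UMIs had 225, 18457 and 10299 CPM. Summed over all libraries, whose mix of cells differs between the steps, cells with 3 or more Hopx UMIs and 1 marker numbered 9 and had 201 CPM of Ndnf, against 89.8 CPM in the 138 cells with 2 markers.

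The main question was how Hopx-high cells differ from Hopx 0 cells of the same library. UMIs were summed per library and class and tested with edgeR's quasi-likelihood test, adjusted by Benjamini-Hochberg over all genes, with the library as a term. Hopx-high cells were the deeper class in 9 of 10 libraries, with medians of 5008 to 20730 UMIs per cell against 3237 to 14515 in Hopx 0 cells, the exception being 2 weeks RFP replicate 2 (12531 against 12758). In 9 libraries (4 days RFP replicate 2, with 6 Hopx-high cells, fell below the minimum of 10 and was left out) 1354 of 10889 genes were called (12.4%), 540 higher (4.96%) and 814 lower (7.48%). With cells limited to 5000 to 20000 UMIs 802 were called, and with cells thinned to 2000 UMIs 644. The largest rises belonged to genes of motile cilia: Sntn by 10.67, Nme9 by 10.51 and Ccdc153 by 10.50 on the log2 scale. Hopx 0 cells, unlike Hopx-high cells, had to hold fewer than 3 UMIs of the ciliated list, which in part fixes the size: the median over the 4 ciliated genes was 8.36, and 6.32 against all Hopx 0 cells. Ccdc153 read 7.99 to 543 CPM in Hopx-high and 0 to 0.290 CPM in Hopx 0 cells, and Scgb1a1, the main secretory product of club cells, read 1963 to 569600 CPM against 39.1 to 6027 CPM. Without airway cells in either class (an alternative added after seeing the data) 1 of the 4 genes of the ciliated list, Dynlrb2, still passed the filter on low counts and differed by -0.0079 on the log2 scale. In that test 7 libraries had at least 10 Hopx-high cells, and 1097 of 10811 genes were called (10.1%), 456 higher (4.22%) and 641 lower (5.93%). Of the 540 genes higher among all Hopx-high cells, 276 (51.1%) were also higher without airway cells, where they made up 60.5% of the higher genes, and for lower genes 533 were shared (65.5% and 83.2%). The values that follow are from the test without airway cells. Where nothing places the libraries in separate animals, p-values measure the spread between these libraries, and since lungs were pooled a library is not 1 mouse. RFP and YFP libraries of the same time may also share lungs.

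Most tested AT1 genes that the rule did not use were higher (16 of 21, with 1 lower). Ndnf stood at 350 (Confetti RFP), 385 (4 days RFP), 401 (4 days YFP), 382 and 546 (2 weeks RFP) and 205 and 177 CPM (2 weeks YFP) in Hopx-high cells and at 53.7, 75.5, 69.4, 58.7, 136, 38.9 and 40.2 CPM in Hopx 0 cells of the same libraries. All 7 Hopx-high values lay above all 7 Hopx 0 values, a log2 difference of 2.39 (SE 0.12, edgeR adjusted p = 2.25e-16). Cavin2, a coat protein of the caveolae with which AT1 cells are filled, rose the most among genes named by the rule, from 1.04 to 8.10 CPM in Hopx 0 to 14.7 to 94.0 CPM in Hopx-high cells (log2 difference 3.13, SE 0.29, edgeR adjusted p = 6.94e-10). Cavin3 of the same coat rose by 2.42 (SE 0.15) in 7 of 7 libraries.

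Krt7 was 350, 765, 267, 1425, 2297, 350 and 1186 CPM in Hopx-high cells and 68.4, 144, 72.5, 719, 1700, 111 and 322 CPM in Hopx 0 cells, in the same order of libraries. It was higher in 7 of 7 libraries (log2 difference 1.57, SE 0.16, edgeR adjusted p = 6.07e-09), yet the classes overlapped, since Hopx 0 cells of both 2 weeks RFP libraries exceeded Hopx-high cells of at least 3 other libraries. Pdpn was 13.99, 41.6, 34.7, 82.8, 112, 122 and 23.6 CPM against 1.16, 10.5, 3.40, 31.9, 60.1, 6.36 and 11.0 CPM, again higher in each library (log2 difference 1.75, SE 0.27, edgeR adjusted p = 1.26e-05). Other rises named by the rule were Itgb6, the epithelial integrin that activates TGF-beta (1.95, SE 0.16), Dpysl2 (1.86), Mmp11 (2.25), Pmp22 (2.27), S100a14 (1.79) and Krtap17-1 (2.52).

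**Figure D3:**
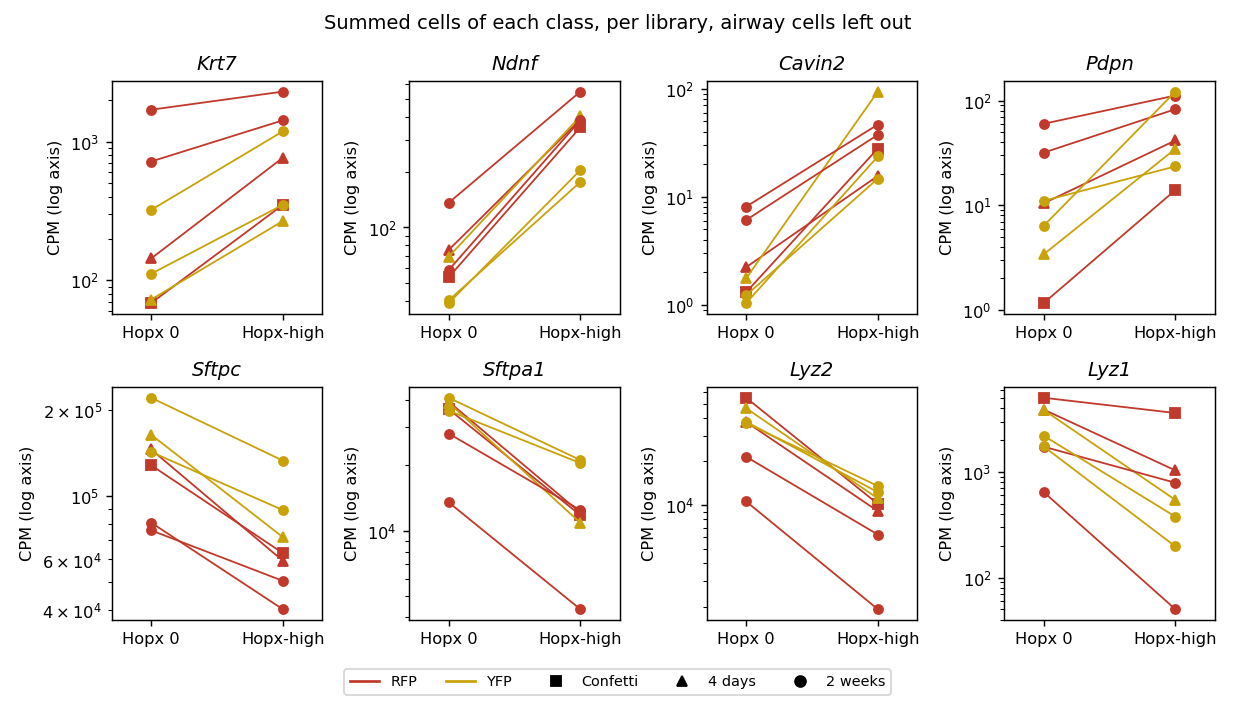
CPM (log axis) of 8 genes in Hopx 0 and Hopx-high cells, 1 line per library, airway cells left out, coloured by RFP or YFP and shaped by Confetti, 4 days or 2 weeks. Krt7, Ndnf, Cavin2 and Pdpn go up and Sftpc, Sftpa1, Lyz2 and Lyz1 go down in each of the 7 libraries.

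Surfactant and lipid genes were lower, without being lost. Sftpc was 63160, 59370, 71830, 40200, 50510, 89260 and 132900 CPM in Hopx-high cells against 128000, 145400, 163600, 80690, 75830, 142500 and 220300 CPM in Hopx 0 cells. It was lower in each library but the classes overlapped, the log2 difference being -0.93 (SE 0.11, edgeR adjusted p = 1.27e-07). Sftpa1 fell from 13510 to 40980 CPM in Hopx 0 to 4342 to 21150 CPM in Hopx-high cells (log2 difference -1.39, SE 0.12), with the lowest value of each class in 2 weeks RFP replicate 2. Lyz2 fell from 10610 to 54880 CPM to 1923 to 13550 CPM (log2 difference -1.97, SE 0.12, edgeR adjusted p = 3.78e-14), and its close paralogue Lyz1, which can share reads with it, differed by -2.22 (SE 0.22). Among the falls named by the rule Spink5, a protease inhibitor, came first at -3.45 (SE 0.44), followed by Fabp12 (-2.52) and Prmt8 (-2.40). Cells with fewer than 10 Sftpc UMIs were 24.3% of Hopx-high and 29.6% of Hopx 0 cells in 2 weeks RFP replicate 2, and 5.88% and 8.77% in replicate 1. In the other 8 libraries they were 0% to 14.3% of 3 to 48 Hopx-high cells and 0.269% to 35.1% of Hopx 0 cells.

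Read by gene list, 16 of 21 tested AT1 genes outside the rule were higher and 1, Prnp, was lower (median log2 difference 1.01, against -0.03 over all genes). They included Col4a3 and Col4a4, the basement membrane collagens of AT1 cells (1.95, SE 0.18, and 1.42, SE 0.17), Timp3, an inhibitor of matrix proteases (1.46), Emp2 (1.03), the tight junction gene Cldn18 (0.90) and Vegfa (0.47). Of 24 AT2 genes 22 were lower and 1, the protease gene Ctsh, was higher (median -0.93). The lower genes covered the lipid transporter Abca3 (-0.92), the fatty acid enzymes Fasn (-1.13) and Scd1 (-1.08), the phosphate carrier Slc34a2 (-1.09), Etv5 (-1.04) and Cebpa (-0.72). Nkx2-1, the lineage factor shared by both alveolar types, was at 252 to 317 CPM in Hopx-high and 180 to 386 CPM in Hopx 0 cells (log2 difference 0.08, SE 0.12, edgeR adjusted p = 0.85). Without 2 weeks RFP replicate 2 as well, 15 AT1 genes were higher and 22 AT2 genes lower.

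Of 25 DATP and transitional genes 13 were higher and 4 lower (median 0.62). Krt19 (1.04, SE 0.12), Krt18 (0.65) and Krt8 (0.50, SE 0.11), the keratins of the transitional state, Anxa1 (1.26) and the secreted chaperone Clu (1.31, SE 0.20) were among the higher genes. The lower ones were Hmga2 (-2.46, SE 0.28), the stress gene Nupr1 (-1.04), Ndrg1 (-0.98) and Itga2 (-0.65). Without 2 weeks RFP replicate 2 as well, 15 were higher and only Hmga2 (-2.08) and Nupr1 (-0.92) lower. With the airway cells in, the lower genes went from 4 to 0 without that library, with 23 genes tested in place of 25. Lrg1 (-1.69) and Lcn2 (-1.57, SE 0.15) were lower among 7 tested primed AT2 genes, Orm1 and Ptges not being called, and none of 12 cycling genes was called (Mki67 0.0031, SE 0.18), though 2 were higher without 2 weeks RFP replicate 2 as well and, with the airway cells in, 3 were lower at 5 or more Hopx UMIs and 2 lower in cells of 5000 to 20000 UMIs. Of 11 YAP and TEAD genes 5 were higher (median 0.53): Ctgf (2.14, SE 0.26), Ajuba (1.36), Cyr61 (1.23), Tead1 (0.84) and the coactivator Wwtr1 (0.68).

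Smaller lists moved in part. Of 11 basement membrane genes 5 were higher (median 0.45), among them the heparan sulfate proteoglycans Agrn (1.03, SE 0.16) and Hspg2 (1.02, SE 0.23). Among 8 ion and water transport genes the 3 subunits of the epithelial sodium channel were higher, Scnn1g by 1.96, Scnn1b by 1.10 and Scnn1a by 0.81, while the lower genes included the chloride channel Cftr (-1.51, SE 0.24) and Atp1b1 (-0.47). Of 9 ligands and growth factors of AT1 cells 6 were higher (median 0.68), including Igfbp7 (1.34, SE 0.11, 7 of 7 libraries), Pdgfa (0.68) and Wnt7a (1.04, higher in 4 of 7 libraries). Of 12 immediate-early and heat-shock genes only Atf3 was higher (median 0.06), whereas 7 were higher with the airway cells in (median 0.55). None of 9 NF-kB inhibitors was called (median 0.05), whereas with the airway cells in Nfkbia was higher (0.71, SE 0.21) and Nfkbiz lower (-0.60, SE 0.19). With the airway cells in, 14 AT1 genes, 12 DATP genes, 6 YAP and TEAD genes and 2 basement membrane genes were higher and 22 AT2 genes lower.

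**Figure D4:**
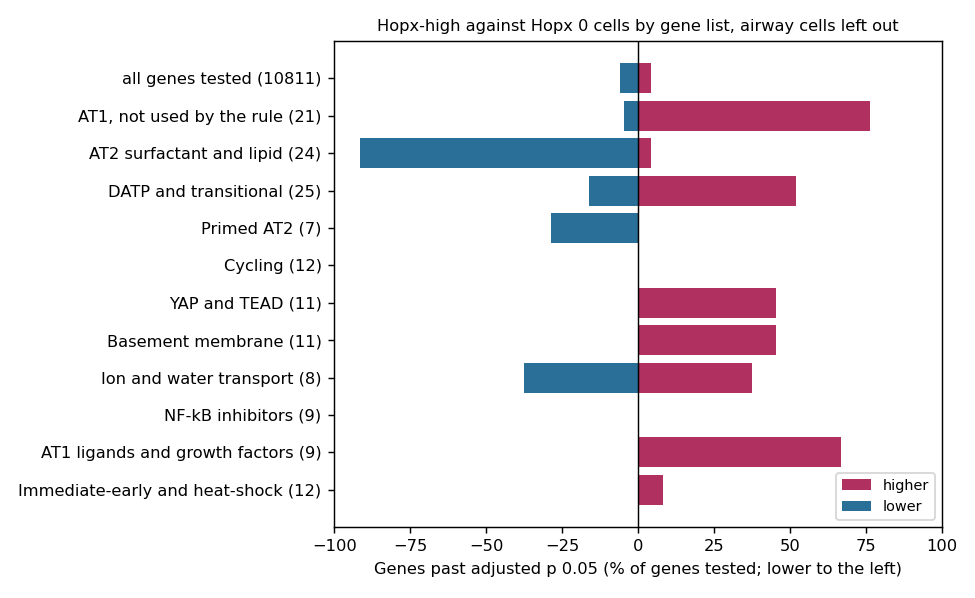
Share of tested genes of each list (%, number tested in brackets) that were higher (right) or lower (left) in Hopx-high than in Hopx 0 cells, airway cells left out, at an edgeR adjusted p below 0.05. The AT1 list lies mostly to the right (16 of 21 genes) and the AT2 list to the left (22 of 24 genes), against 4.22% and 5.93% of all genes tested.

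Mutant and wildtype Hopx-high cells were compared next over 3 RFP and 4 YFP Red2Kras libraries, with the time as a term. In this fit, which did not pair the colours, none of 3585 genes passed edgeR's test (0.0%). At an unadjusted p below 0.05 there were 341, and DESeq2 called 18. The smallest adjusted p was that of Areg, the EGF receptor ligand amphiregulin: 829 (4 days), 1107 and 1259 CPM (2 weeks) in RFP and 313 and 261 (4 days) and 283 and 285 CPM (2 weeks) in YFP cells. The groups did not overlap, and the log2 difference was 1.85 (SE 0.26, edgeR adjusted p = 0.0661). In 4 days RFP replicate 1, 1 of 20 non-airway Hopx-high cells held 58.3% of the Areg UMIs. Without that cell the plain sum went from 1300 to 571 CPM. Non-airway Hopx 0 cells of the same libraries had 260, 767 and 1378 CPM of Areg in RFP, in plain sums. In YFP they had 147 and 118 (4 days) and 330 and 141 CPM (2 weeks). The labels do not say whether RFP and YFP libraries of the same number share lungs. The paper describes sorting both colours from Red2Kras lungs at each time, without matching library numbers. A fit blocked by replicate number called 29 genes, 11 higher and 18 lower in RFP. These included Areg (1.85, SE 0.30), Cldn4, a tight junction gene of the transitional state (1.64, SE 0.26), and the protein C receptor gene Procr (2.99, SE 0.45), each at an edgeR adjusted p of 0.0201, and, lower, the apolipoprotein gene Apoe (-3.07, SE 0.50). Without airway cells 0 genes were called without the block (0.0% of 3679, 442 unadjusted) and 76 with it, in the 3 RFP and 3 YFP libraries that kept at least 10 cells. Areg then differed by 1.95 (SE 0.25, edgeR adjusted p = 0.0628).

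By list, 0 of 20 tested DATP genes were called without the block, with a median RFP minus YFP log2 difference of 1.14 against 0.01 over all genes. The AT1 list had a median of 0.35 and the AT2 list of -0.52, with 0 genes called. Without airway cells the medians were 1.3 for the DATP, 0.05 for the AT1 and -0.68 for the AT2 list, again with 0 genes called without the block. The fit with the block and with the airway cells in did call Areg and Cldn4 of the DATP list. Cldn4 was 145, 143 and 229 CPM in RFP and 38.1, 114, 46.6 and 80.4 CPM in YFP Hopx-high cells, without overlap. Krt7 was 524, 1137 and 1889 CPM in RFP and 246, 148, 303 and 931 CPM in YFP, with overlap at 2 weeks YFP replicate 2. Procr was 24.8, 172 and 353 CPM in RFP and 4.23, 11.3, 2.92 and 71.2 CPM in YFP, the last again from 2 weeks YFP replicate 2. At 4 days its UMIs came from 2 of 20 non-airway Hopx-high cells in RFP replicate 1 and from none in YFP. In plain sums of non-airway Hopx 0 cells Procr was 1.55, 41.5 and 305 CPM in RFP and 0.324, 0.117, 4.26 and 21.4 CPM in YFP.

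The last comparison asked whether the step from Hopx 0 to Hopx-high differed between colours, as the interaction of class and colour. Of 10975 genes 35 were called (0.319%), 4 with a larger log2 step in RFP (0.0364%) and 31 with a smaller one (0.282%). With the replicate block 70 were called, and without airway cells 44 (0.403% of 10925), 10 larger (0.0915%) and 34 smaller (0.311%). Sprr1a, a cornified envelope protein of stressed epithelium, had the smallest adjusted p and the largest difference of the 4 genes that met the naming rule. Called genes outside that rule reached -5.80 (Plat, the gene of tissue plasminogen activator, picked after its value was seen). In YFP libraries Sprr1a was 258, 1044, 142 and 904 CPM in Hopx-high and 23.6, 29.2, 20.4 and 67.3 CPM in Hopx 0 cells. In RFP libraries it was 25.1, 138 and 117 CPM in Hopx-high and 25.3, 244 and 218 CPM in Hopx 0 cells. The RFP minus YFP difference of the log2 steps was -4.21 (SE 0.26, edgeR adjusted p = 1.54e-16), the YFP steps all being larger than the RFP ones. In YFP the UMIs came from few cells: 5, 3, 4 and 7 non-airway Hopx-high cells held any Sprr1a, and 1 cell held 69.7%, 82.7%, 45.8% and 63.9% of them. In RFP, 10%, 31.4% and 9.63% of non-airway Hopx-high cells held Sprr1a, against 0.840%, 12.8% and 10.4% of Hopx 0 cells. Without airway cells the plain sum in 4 days RFP replicate 1 was 39.6 CPM, from 2 cells, against 25.0 CPM in Hopx 0 cells.

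Cldn4 differed by -1.57 (SE 0.29, edgeR adjusted p = 0.00169). It was at 14.2 CPM in Hopx 0 cells of 4 days RFP replicate 1, with 147 CPM in its Hopx-high cells, so the small steps were those of 2 weeks RFP. Hopx 0 cells were at 113 and 253 CPM in the 2 weeks RFP libraries and at 1.41 to 34.8 CPM in those of YFP, against 152 and 251 CPM and 35.2 to 100 CPM in Hopx-high cells. The YFP values came from 3, 1, 2 and 7 non-airway cells, and without the highest of them went, in plain sums, from 55.3 to 26.3, 115 to 0, 47.0 to 17.7 and 90.5 to 73.3 CPM. Pdpn (-1.73, SE 0.40), S100a6 (-1.22, SE 0.23), Lgals3, which encodes galectin-3 (-1.31, SE 0.25), and F3, which encodes tissue factor (-1.70, SE 0.34), also had smaller steps in RFP. The RFP values that follow are plain sums of non-airway cells in 4 days replicate 1 and 2 weeks replicates 1 and 2, in this order. S100a6 was 703, 4792 and 7359 CPM in Hopx 0 and 5376, 7211 and 8086 CPM in Hopx-high cells. F3 went from 17.7, 184 and 791 to 79.1, 289 and 438 CPM. Pdpn went from 9.42, 31.7 and 57.7 to 45.2, 85.4 and 112 CPM, and Lgals3 from 250, 643 and 771 to 464, 881 and 951 CPM. Single Hopx-high cells held a large part of the UMIs of these genes in some YFP libraries. Without its highest non-airway cell F3 went from 215 to 32.3 CPM in 2 weeks YFP replicate 2, in plain sums, below the 39.8 CPM of Hopx 0 cells. S100a6 there went from 8253 to 2945 CPM (1626 CPM in Hopx 0 cells). In 2 weeks YFP replicate 1 F3 was 12.8 CPM with all non-airway cells, against 13.6 CPM in Hopx 0 cells. In 4 days YFP replicate 2, with 7 such cells, S100a6 went from 1719 to 125 CPM (98.9 CPM in Hopx 0 cells). Lgals3 there went from 3782 to 1930 CPM (162 CPM in Hopx 0 cells). In 2 weeks YFP replicate 1 Pdpn, held by 13 of 32 cells, went from 133 to 83.1 CPM (5.93 CPM in Hopx 0 cells). In the other direction Sftpb, a surfactant protein gene, had a difference of 0.92 (SE 0.17): in YFP it went from 6492 to 8533 CPM in Hopx 0 to 1697 to 5078 CPM in Hopx-high cells, and in RFP from 6470, 5501 and 5740 CPM to 2988, 4767 and 6853 CPM. Hopx 0 cells of 2 weeks RFP replicate 2 thus had less Sftpb than the Hopx-high cells of the same library, the reverse of the order in the other 6. Without airway cells, where 4 days YFP replicate 2 dropped out, the differences were -4.34 for Sprr1a, -1.46 for Cldn4, -1.91 for Pdpn, -0.98 for S100a6, -0.93 for Lgals3, -1.63 for F3 and 0.84 for Sftpb, each still called by edgeR.

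**Figure D5:**
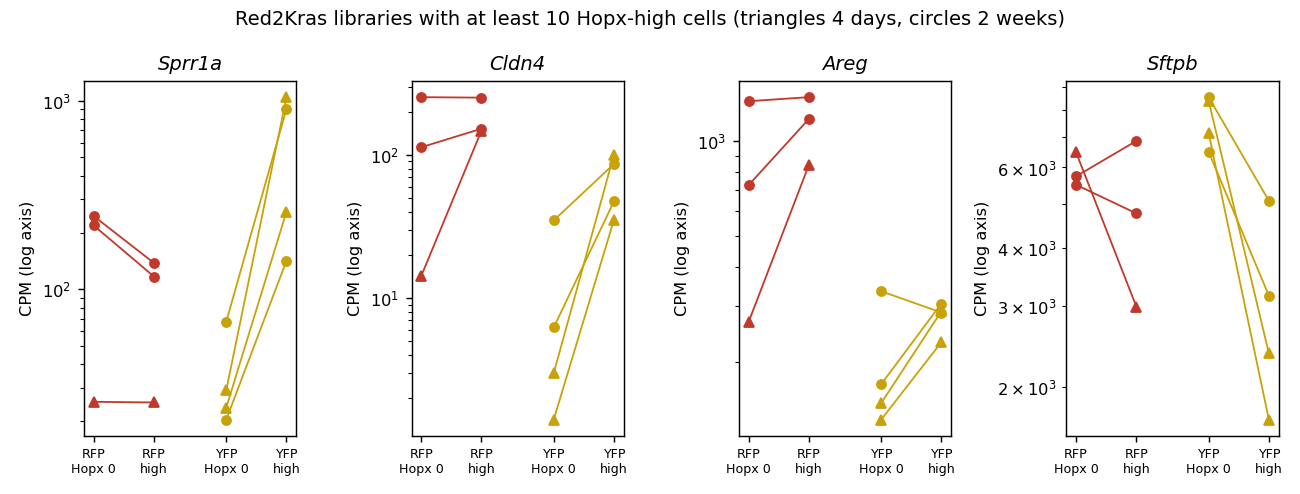
CPM (log axis) of Sprr1a, Cldn4, Areg and Sftpb in Hopx 0 and Hopx-high cells, 1 line per Red2Kras library, RFP in red and YFP in yellow, triangles for 4 days and circles for 2 weeks. In these sums, with airway cells kept in, Sprr1a climbs in all 4 YFP libraries (from 20.4 to 67.3 CPM up to 142 to 1044 CPM) and does not in the 3 RFP libraries.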

How the data were processed

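The deposited matrices hold raw UMI counts of genes by barcodes, for which the authors ran Cell Ranger on GRCm38 (version 3.1.0 per the labels, 5.0.1 per the file headers), after FastQC 0.11.3 and MultiQC 1.8. Coordinates are from GENCODE M21. Members, gene lists and tests were chosen with earlier results of these data known. Barcodes with at least 1000 genes, at most 50000 UMIs and at most 15% mitochondrial UMIs were kept. Each UMI collapses PCR copies of 1 molecule. Doublets were kept in the main setting: Scrublet (scanpy 1.11.5) at 0.8% expected doublets per 1000 cells marked 940 cells, 22 of them Hopx-high, and its automatic threshold marked 33 cells and no Hopx-high cell.

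Counts were summed per library and class for libraries with at least 10 cells of each class. edgeR 4.0.16 was used (TMM scaling, filterByExpr, quasi-likelihood F test, Benjamini-Hochberg over all genes, threshold 0.05), and DESeq2 1.42.0 as an alternative. CPM are TMM-scaled where a test is given and plain sums where cells are laid out by Hopx count, and are not corrected for gene length. Genes used by the rule were not tested. Named genes are those of the lists and the 10 largest rises and falls among called genes with 1 direction in all libraries (between colours, no overlap) and a mean of at least 20 CPM. Cells with 100 or more Scgb1a1 UMIs, or 3 or more UMIs of Scgb3a2 and Cyp2f2 together or of the ciliated list, were called airway cells after the data had been seen. Shares were compared over libraries by exact permutation.

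Whether same-numbered RFP and YFP libraries share lungs is not given in the labels, so the block by number is an alternative. Deviations of same-numbered RFP and YFP libraries correlated at 0.570 (4 days) and 0.622 (2 weeks) in Hopx 0 cells and at 0.206 and 0.419 in Hopx-high cells, over 3325 genes, which is 1 independent value per time since 2 replicates deviate by equal and opposite amounts. On simulated counts the test of Hopx-high against Hopx 0 cells recovered 68% of genes changed by 1 and 95% of those changed by 2 on the log2 scale (10649 genes). The RFP against YFP test recovered 26% and 85% (3392 genes), and the test of the difference of steps 19% and 61% (10782 genes). The simulated sums took the spread typical of a gene's level, and only genes above a low mean count were changed. The spread of each gene by itself and single cells with many UMIs were not simulated. Alternatives were other scaling, count filters, cell minimums, Hopx and marker limits, doublet removal, depth limits, thinning, removal of cells with transcripts of other types, the replicate block and leaving out each library.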

Additional observations from a re-analysis of the deposited data

Results flagged for a closer look

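Results are listed here where 1 library stood apart by Dixon's test or where the step from Hopx 0 to Hopx-high cells differed between colours in an interaction test. Dixon's test was run on 11 sets of values: the share in the 4 Red2Kras RFP libraries, and the share and single genes in the 4 YFP libraries. In 3 sets a library stood apart, where chance alone marks about 1 in 20. The YFP sets came from the same 4 libraries, so they are not independent. The share of Hopx-high cells was 20.8% in 2 weeks RFP replicate 2, the highest of the 4 Red2Kras RFP libraries. Procr in Hopx-high cells was highest in 2 weeks YFP replicate 2 among the 4 YFP libraries (71.2 CPM), where 4 of 48 non-airway cells held its UMIs and 1 cell held 83.9% of them. Lyz2 in Hopx-high cells was lowest in 4 days YFP replicate 2 (5402 CPM), a library in which 3 of the 10 Hopx-high cells were airway cells and Scgb1a1 took 569600 CPM.

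The RFP minus YFP difference of the log2 step was -4.21 for Sprr1a, -1.57 for Cldn4, -1.73 for Pdpn, -1.70 for F3, -2.57 for Spp1, -1.22 for S100a6, -1.31 for Lgals3 and -1.38 for Cox6a2, and it was 0.92 for Sftpb and 1.08 for Rab9, all by edgeR's interaction test. Spp1, the osteopontin gene, was at 359 and 1037 CPM in non-airway Hopx 0 cells of the 2 weeks RFP libraries and at 10.4 and 53.6 CPM in those of 2 weeks YFP. In Hopx-high cells of the YFP libraries its UMIs came from 1 cell in 4 days YFP replicate 1 and 3 cells in 2 weeks YFP replicate 2, and the other 2 had none.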

How the results depend on the processing

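The count of genes called between Hopx-high and Hopx 0 cells (1354) stayed within 1.5 times under 19 of 22 alternatives. It was 802 in cells of 5000 to 20000 UMIs, 644 with cells thinned to 2000 UMIs (163 higher, 481 lower) and 836 without airway cells and without 2 weeks RFP replicate 2, and 1082 to 1293 with 1 library left out. DESeq2 called 645 higher and 585 lower, against 540 and 814. Over all settings 12 to 17 AT1 genes were higher and 21 to 22 AT2 genes lower. Direction turned for Dynlrb2 (-0.058 without cells of other types, -0.0079 without airway cells), Scgb1a1 (-1.33 in cells of 5000 to 20000 UMIs, -0.042 without other types, -1.16 without airway cells, -1.48 also without 2 weeks RFP replicate 2, up to 7.12 with 1 library left out), Cyp2f2 (-0.49 and -0.41, up to 4.07 with 1 library left out) and Pon1 (-2.24 and -2.82, up to 0.75) without airway cells and also without that library, Sprr1a (-0.17 with Hopx at 5 or more UMIs), Fos (-0.047 without other types) and F3 (-0.19 in cells of 5000 to 20000 UMIs). The cause was not tested.

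For RFP against YFP the count of 0 became 18 with DESeq2, 151 with no filter on low counts, 1 without cells of other types, and 0 to 3 with 1 library left out: 3 without 4 days YFP replicate 1, 1 without 2 weeks RFP replicate 2 and 1 without 2 weeks YFP replicate 2. With the replicate block it was 29, and 76 also without airway cells. For the difference of the steps the count of 35 became 6 with DESeq2, 75 with no filter, 122 with Hopx at 5 or more UMIs, 16 with 3 or more markers, 23 in cells of 5000 to 20000 UMIs and 7 when thinned. With the replicate block it was 70, and 59 also without airway cells. With 1 library left out it was 23 (2 weeks RFP replicate 2) to 80 (2 weeks YFP replicate 2), with 54 without 4 days RFP replicate 1 or 2 weeks RFP replicate 1 and 58 without 4 days YFP replicate 1. The difference in share was 4.33 points, from -0.572 to 6.26 with 1 library left out, and 2.11 with thinned cells. It reversed only without 2 weeks RFP replicate 2. The replicate block left its 4.33 points as they were, with p = 0.375 by exact permutation.

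The RFP against YFP test includes libraries with few cells: 3 of its 7 held 10 to 25 Hopx-high cells, and 4 days RFP replicate 2, with 6, is in none of the tests across genes.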
